A study of Sus scrofa domesticus with 4 samples.

Results

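The oxytocin receptor (OXTR), the endothelin receptors A and B (EDNRA and EDNRB) and connexin 43 (GJA1) were followed in explants of pig myometrium, the muscular wall of the uterus, cultured with or without orexin A (OXA). Their probes were all those of the array design whose RefSeq transcript belongs to 1 of the 4 genes, which gave 5 of 43603 probes: 1 each for OXTR, EDNRA and GJA1, and 2 for EDNRB. All 5 passed the filter on dim probes, as did 19505 probes of the whole array. Each of 4 arrays compared OXA-treated tissue with non-treated tissue. The treated explants were kept for 24 h with OXA after 2 h of preincubation, and the non-treated explants were kept the same way without it. Both groups came from the middle of the uterine horns of mature Large White x Polish Landrace gilts, 7 to 8 months old, on days 15 to 16 of gestation. The OXA dose is 10 nM by the sample labels and 10 µM by the series' design text, and which was used is not settled here. The labels name 4 gilts and 4 separate culture experiments prepared in duplicate, and leave unsaid whether 1 gilt gave both channels of an array, so the spread between arrays may be in part technical.

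Oxytocin and endothelin both make the uterus contract. Their receptors sit in the membrane of the smooth muscle cell and couple to G proteins of the Gq family, which raise intracellular calcium through phospholipase C. Connexin 43 forms the gap junctions that join these cells electrically and let contractions spread, and in mammals its level and that of the oxytocin receptor are known to be high at labour. Early in gestation the uterus is normally kept quiet.

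The 4 arrays did not run in one direction over the whole transcriptome. By the channel labels, arrays 1 and 3 had OXA in Cy5 while arrays 2 and 4 had it in Cy3. The deposited ratios run the same way, whereas the labelling protocol words OXA as Cy5 throughout. Over the tested probes (not independent of each other), the log2 ratios of array 2 had a correlation of r = -0.59 with array 1, r = -0.30 with array 3 and r = -0.38 with array 4, although arrays 2 and 4 share a dye orientation. Arrays 1 and 4 had r = 0.62, arrays 1 and 3 had r = 0.23, and arrays 3 and 4 had r = -0.06, or r = -0.35 over all probes, tested or not. Member results are given with and without array 2. The share of probes flagged as well above background was 39.9% to 49.7% for OXA and 41.5% to 61.1% for non-treated tissue. By limma, 0 of 19505 probes had an adjusted p under 0.05 (0% called) and 235 an unadjusted p under 0.05 (1.2%). When the channels were fitted separately in limma these counts were 0 and 598. Of the smooth muscle markers, 5 of 9 had a named probe (ACTA2, CNN1, DES, MYLK and SMTN), and all 5 were well above background in every channel.

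All 4 transcripts were detected in both treated and non-treated myometrium, and none passed the test for a difference between them. The mean log2 ratio of OXA over non-treated tissue was above 0 for all 5 probes, between 0.20 and 0.37, which corresponds to 1.15-fold to 1.29-fold. Of the tested probes 47.2% had a mean above 0. By limma 0 of the 5 were called, each with an adjusted p of 0.998 and an unadjusted p between 0.254 and 0.489. Fewer cells of a type and less RNA per cell cannot be told apart in such tissue samples.

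OXTR (probe A_72_P088746, NM_214027) encodes the receptor for oxytocin, the hormone that drives uterine contraction and milk ejection. Its processed signal, the background-subtracted and dye-normalised intensity of the scanner software, was 31214, 17075, 12524 and 17787 in OXA-treated tissue on arrays 1 to 4, against 21112, 18140, 11035 and 16048 in non-treated tissue. The ranges of both channels overlapped, and the treated channel was the brighter on arrays 1, 3 and 4. OXTR median signal, which is not dye-normalised, stood 651 to 1509 times above local background in the OXA channel. In the non-treated channel it stood 482 to 1289 times above it. The difference between arrays was wider than that between treatments, with signals spanning 2.49-fold over the OXA channels and 1.91-fold over the non-treated channels. The signals are not scaled between arrays.

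The log2 ratio of OXTR was 0.56 on array 1, -0.09 on array 2, 0.18 on array 3 and 0.15 on array 4. It averaged 0.20 ± 0.27 (SD, n = 4 arrays), or 1.15-fold. limma gave an interval of -0.43 to 0.84 (95%), which holds 0, with an adjusted p of 0.998, and the exact sign permutation test gave p = 0.25. Array 1 carried most of the positive mean: without it the estimate was 0.11, and without array 2 it was 0.26. The scanner's own error of the OXTR ratio was 0.20 to 0.21 on each array (log2). Array 1 lay more than 1 such error above all the others, and array 2 more than 1 such error below them. On the arrays with OXA in Cy5 the OXTR ratio averaged 0.37, and on those with OXA in Cy3 it averaged 0.03. The dye term for OXTR was 0.17, with an interval of -0.46 to 0.80, and was not called (adjusted p = 1.00 in limma). For dye, limma called 0 probes (0%), and 477 had an unadjusted p under 0.05 (2.45%).

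**Figure D1:**
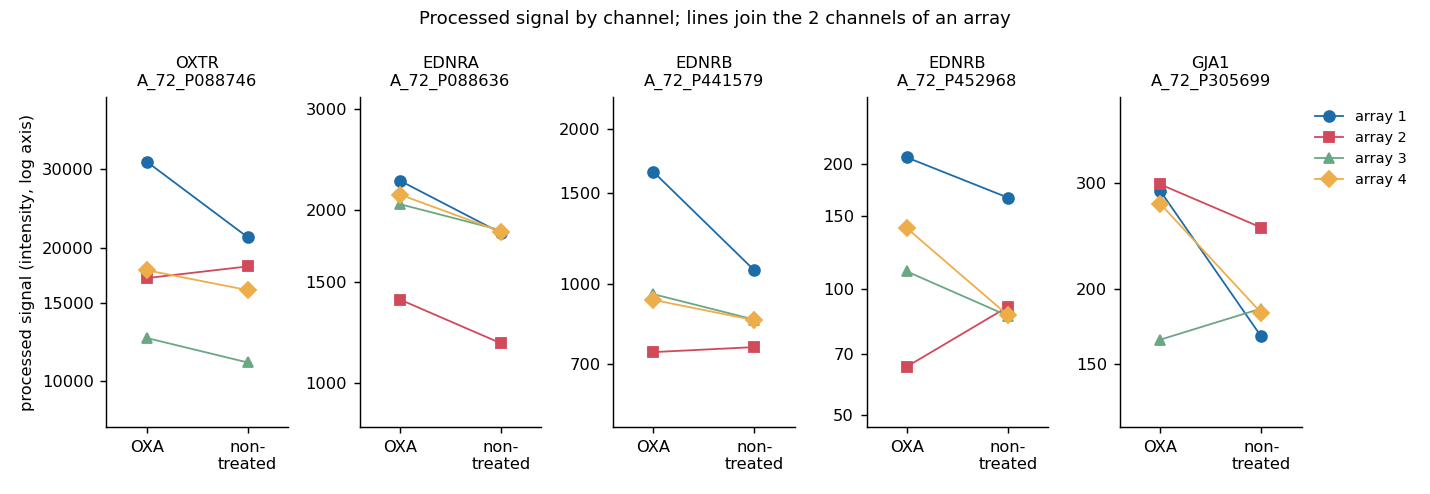
Processed signal (intensity, log axis) of each of the 5 probes in the OXA channel and the non-treated channel, with a line joining the channels of each array. OXA and non-treated signals overlap for every probe, and EDNRA is the probe whose OXA signal is the higher on all 4 arrays.

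EDNRA (probe A_72_P088636, NM_214229) encodes the endothelin receptor that mediates contraction of smooth muscle. Its processed signals were 2247, 1397, 2046 and 2126 in OXA-treated tissue on arrays 1 to 4, against 1824, 1173, 1844 and 1834 in non-treated tissue. The treated channel was the brighter on all 4 arrays, although the ranges of the groups overlapped because array 2 was dimmer in both channels. The log2 ratios were 0.30, 0.25, 0.15 and 0.21 on arrays 1 to 4. In the deposited ratios EDNRA was the 1 member probe of 5 above 0 on all 4 arrays, where 3.96% of tested probes had this and 3.76% had a ratio below 0 on all 4.

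The mean log2 ratio of EDNRA was 0.23 ± 0.064 (SD, n = 4 arrays), or 1.17-fold, and its fold interval in limma ran from 0.765 to 1.80. A lower SD than this was found for 0.251% of tested probes. In the background-corrected median signals with loess, EDNRA had 0.27, 0.39, 0.16 and 0.09 on arrays 1 to 4, a mean of 0.23 ± 0.13 (SD, n = 4 arrays), and 5.30% of tested probes had a lower SD. In the deposited ratios the SD was smaller than the scanner's error for a single EDNRA ratio, which was 0.20 to 0.21. limma shares the spread of all probes, so the EDNRA interval stayed wide (-0.39 to 0.85 on the log2 scale, adjusted p = 0.998). The exact sign permutation test gave p = 0.13 (rounded), the smallest that 4 arrays allow. EDNRA ratios averaged 0.23 with OXA in Cy5 and 0.23 with OXA in Cy3, with a dye term of -0.0034 (interval -0.62 to 0.61). Because the dye orientations gave equal values, reading OXA as Cy5 on all arrays set the pairs against each other and gave -0.0034. Without array 2 the estimate was 0.22, and with array 2 turned it was 0.14.

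EDNRB encodes the endothelin receptor that, on endothelium, mediates relaxation of vessels and clears endothelin, and that can also contract smooth muscle. Its brighter probe (A_72_P441579, NM_001038002) had processed signals of 1649, 737, 955 and 931 in OXA-treated tissue on arrays 1 to 4, against 1062, 754, 853 and 850 in non-treated tissue. The groups overlapped, and array 1 was the highest in both channels. The log2 ratios of this EDNRB probe were 0.63, -0.03, 0.16 and 0.13, with a mean of 0.22 ± 0.29 (SD, n = 4 arrays), or 1.17-fold. limma's interval was -0.41 to 0.86 (adjusted p = 0.998), and the exact sign permutation test gave p = 0.25. With loess on the background-corrected median signals the brighter EDNRB probe had 0.48, 0.15, 0.12 and 0.13, so that, like EDNRA, it lay above 0 on all 4 arrays, as 4.6% of tested probes did. Leaving out array 1 gave 0.11, leaving out array 3 gave 0.34 and leaving out array 2 gave 0.26.

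The dimmer EDNRB probe (A_72_P452968, of the same transcript) was well above background in 7 of 8 channels, the exception being the OXA channel of array 2. Its processed signals were 207, 65.2, 110 and 140 in OXA-treated tissue, against 166, 90.7, 86.4 and 86.7 in non-treated tissue, again with overlap. The log2 ratios were 0.32, -0.48, 0.35 and 0.69, with a mean of 0.22 ± 0.50 (SD, n = 4 arrays), an interval of -0.51 to 0.96 in limma, and an adjusted p of 0.998 (exact sign permutation p = 0.50). Its mean equalled that of the brighter probe to 2 decimals, while the ratios on single arrays differed by 0.40 (root mean square, log2). Both EDNRB probes were lower with OXA on array 2 and higher on the other arrays. The scanner's error for the dimmer probe was 0.24 to 0.41, above the 0.21 of the brighter one. Its estimate was -0.070 without array 4, 0.52 without array 2 and 0.54 with array 2 turned. The fit without array 4 keeps the dye term, so array 2 counts there for more than either other array.

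GJA1 (probe A_72_P305699, NM_001244212) encodes connexin 43, the main gap junction protein of the myometrium. Its probe gave processed signals of 291, 298, 164 and 277 in OXA-treated tissue on arrays 1 to 4, against 166, 253, 185 and 182 in non-treated tissue. The groups overlapped, with array 3 being the lowest in the OXA channel and array 2 the highest in both. GJA1 median signal, which is not dye-normalised, stood 13.9 to 30.7 times above local background in the OXA channel. In the non-treated channel it stood 8.69 to 21.3 times above it. In this measure the log2 of OXA over non-treated was -0.61, 0.71, -0.47 and 1.21 on arrays 1 to 4. The GJA1 probe was flagged as well above background in all 8 channels.

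The log2 ratio of GJA1 was 0.81, 0.24, -0.17 and 0.60 on arrays 1 to 4, the highest mean of the 5 probes at 0.37 ± 0.43 (SD, n = 4 arrays), or 1.29-fold. Of the tested probes 90.4% had a lower mean. The limma interval was -0.34 to 1.08 (0.787-fold to 2.12-fold, adjusted p = 0.998), and the exact sign permutation test gave p = 0.25. The estimate was 0.12 without array 1 and 0.61 without array 3, and 0.46 without array 2. In the background-corrected median signals with loess, GJA1 had 0.45, 0.27, -0.10 and 0.33 on arrays 1 to 4, a mean of 0.24 ± 0.24 (SD, n = 4 arrays). GJA1 ratios averaged 0.32 with OXA in Cy5 and 0.42 with OXA in Cy3, and reading OXA as Cy5 on all arrays gave -0.052. The scanner's error for a single GJA1 ratio was 0.23 to 0.24, so arrays 1 and 4 lay more than 2 such errors above 0. This error describes 1 spot and leaves out the spread between animals.

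**Figure D2:**
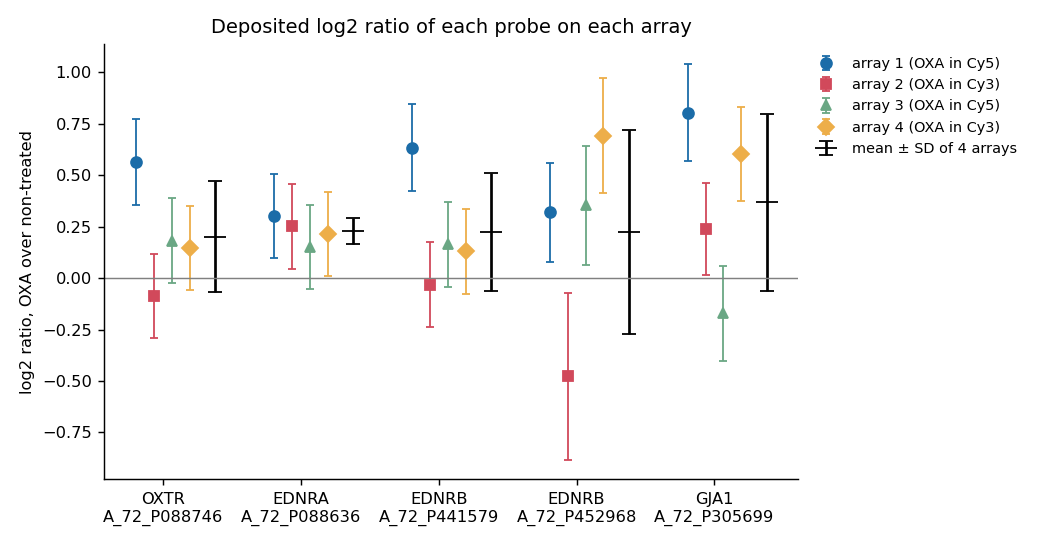
Deposited log2 ratio (OXA over non-treated) of the 5 probes on each array, with bars for the scanner's error of that ratio, and the mean ± SD of the 4 arrays in black. EDNRA lies between 0.15 and 0.30 on every array, while the other 4 probes each have 1 array below 0.

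At least 3 of 4 arrays had a ratio above 0 for each of the 5 probes, against 29.6% of tested probes. The genes were chosen with earlier results of these data known and both EDNRB probes match the same transcript, so this was no test. The array that went below 0 was array 2 for OXTR and both EDNRB probes, and array 3 for GJA1. OXTR and the brighter EDNRB probe had nearly the same deposited ratio on each array, with a root mean square difference of 0.046. The dimmer EDNRB probe lay further from OXTR on each array, with deposited ratios of 0.32, -0.48, 0.35 and 0.69. With loess OXTR and the brighter EDNRB probe lay further apart, with 0.48, -0.0013, 0.065 and 0.30 for OXTR against 0.48, 0.15, 0.12 and 0.13. EDNRA differed from OXTR by 0.22 and GJA1 differed from OXTR by 0.35 in the same measure.

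**Figure D3:**
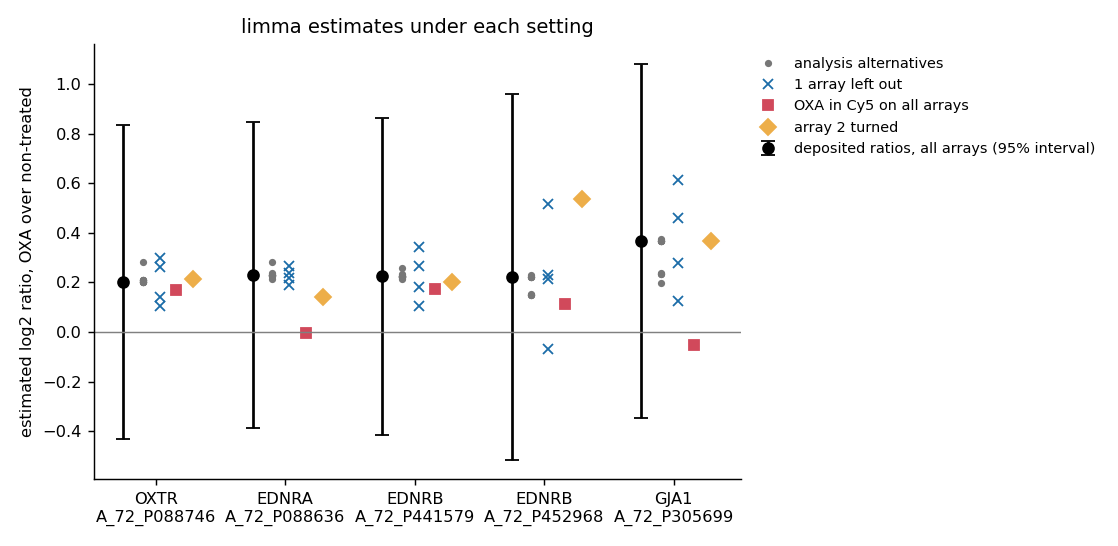
limma estimates of the log2 ratio (OXA over non-treated) for the 5 probes, with the 95% interval of the fit on the deposited ratios in black and the estimates of each alternative beside it. Every interval holds 0, and the estimates below 0 are that of the dimmer EDNRB probe with 1 array left out and those of EDNRA and GJA1 when OXA is read as Cy5 throughout.

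Among 1981 other named genes, the 3 with the smallest difference from OXTR over the 4 arrays were SEC23B (root mean square difference 0.063), RAB11A (0.065) and CALM3 (0.068). SEC23B acts in vesicle coats that leave the endoplasmic reticulum, RAB11A in recycling of membrane proteins to the cell surface, and CALM3 encodes calmodulin. In the deposited ratios the brighter EDNRB probe was closer to OXTR than any of these (0.046). The dimmer EDNRB probe was not compared with OXTR in this measure. For EDNRA they were DMD, which encodes dystrophin (0.048), MTCH1 (0.065) and NDRG2 (0.070). ATP5E (0.065), a subunit of mitochondrial ATP synthase, SEC23B (0.071) and DKK3 (0.076) were the closest to the brighter EDNRB probe. Among those closest to GJA1 were SDC4 (0.10), the heparan sulphate proteoglycan syndecan 4, and TALDO1 (0.15), an enzyme of the pentose phosphate pathway. The median gene differed by 0.50 from OXTR, 0.54 from EDNRA, 0.52 from EDNRB and 0.60 from GJA1.

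The ligands of the receptors were measured too. OXT, the transcript that encodes oxytocin, had log2 ratios of 0.90, 0.15, 0.32 and 0.89 on arrays 1 to 4 and a mean of 0.56 ± 0.39 (SD, n = 4 arrays, limma adjusted p = 0.998). It lay above 0 on all 4 arrays, as 3.96% of tested probes did. AVPR2, a receptor for the related hormone vasopressin, had 1.63, -0.20, 0.32 and 1.44, with a mean of 0.80 ± 0.88, and LNPEP, the aminopeptidase that breaks down oxytocin, had -0.94, 0.58, -0.44 and -0.78, with a mean of -0.39 ± 0.68 (SD, n = 4 arrays). Of this list of 7 genes 4 had a named probe and 3 were tested, of which 0 were called higher and 0 lower. AVP was not well above background in any channel. EDN1, which encodes endothelin 1, had 0.58, -0.89, -0.01 and 0.42, with a mean of 0.02 ± 0.66 (SD, n = 4 arrays). It was the 1 tested gene of the endothelin list. EDN3, the other with a named probe, was not well above background in any channel.

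The other gap junction gene that was tested was GJC1, which encodes connexin 45, a partner of connexin 43 in the uterus. GJC1 had 0.29, 0.11, 0.29 and 0.35 on arrays 1 to 4, with a mean of 0.26 ± 0.10 (SD, n = 4 arrays, limma adjusted p = 0.998). All 4 ratios were above 0, as for 3.96% of tested probes. GJA4, which encodes the vascular connexin 37, did not pass the filter. These were the 2 genes with a named probe of a list of 21, and 0 were called.

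Downstream of both receptors, 3 genes had a named probe and were tested, and 0 were called. GNA11, a G protein alpha subunit of the Gq family, averaged 0.23 ± 0.74, its relative GNAQ averaged 0.03 ± 0.24, and RHOA, the small GTPase that sensitises smooth muscle to calcium, averaged 0.11 ± 0.15 (SD, n = 4 arrays). The 3 tested probes of RHOA averaged between -0.0063 and 0.11. The median of the 3 means was 0.11, against -0.02 over all tested probes. Of the genes that switch receptors off, 4 were tested and 0 were called. RGS2 and RGS4, which speed the shut-off of G proteins, averaged -0.19 ± 0.53 and -0.06 ± 1.06, and GRK2, a kinase of activated receptors, averaged 0.05 ± 0.27 (SD, n = 4 arrays). RGS4 was 1.47 on array 2 and between -0.87 and -0.24 on the other arrays. AKT1, the 1 tested gene of the kinases that act on connexin 43, averaged -0.14 ± 0.81.

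Of 9 tested transcription factors that are linked to OXTR or GJA1 in other mammals, 0 were called in either direction, and the median of their means was 0.09. SMAD3, which carries TGF-beta signals, had 0.55, 0.53, 0.37 and 0.09 on arrays 1 to 4, with a mean of 0.38 ± 0.21 (SD, n = 4 arrays). It was the 1 factor of 9 above 0 on all arrays, against 3.96% of tested probes. ESR1, the oestrogen receptor alpha, had 0.86, -0.10, 0.24 and 0.51, with a mean of 0.38 ± 0.41, and JUN, a subunit of the AP-1 factor, averaged 0.14 ± 0.31 (SD, n = 4 arrays). For each of these genes limma's adjusted p was 0.998.

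**Figure D4:**
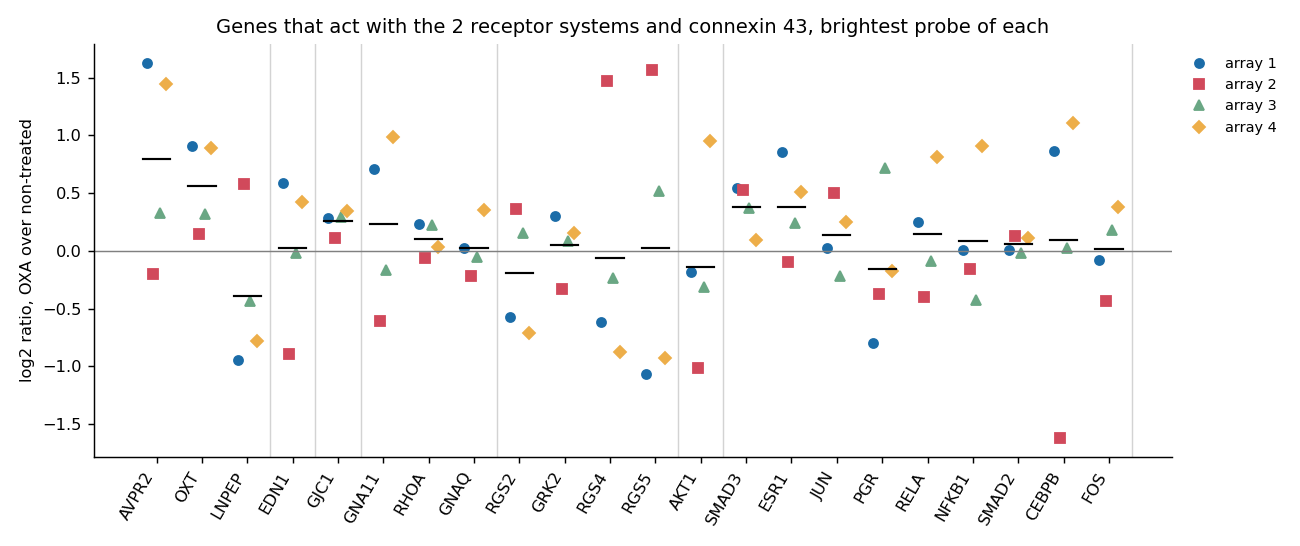
Log2 ratio (OXA over non-treated) of the tested ligands, partners, signalling genes and transcription factors on each array, with the mean as a black line. OXT, GJC1 and SMAD3 lie above 0 on all 4 arrays, as do 3.96% of tested probes. Array 2 lies far from arrays 1 and 4 for AVPR2, LNPEP, EDN1, GNA11, RGS4, RGS5 and CEBPB, among others.

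Markers of other cell types also differed between the channels of an array. Uterine epithelium markers, which mark cells that also carry oxytocin receptors in pigs, had median log2 ratios of -1.46, 2.06, -1.04 and 1.98 on arrays 1 to 4 over 4 tested genes. Their summed processed signal over 5 genes ranged from 97.2 to 8615 in the OXA channel and from 229 to 2243 in the non-treated channel, and 0 of the 5 were well above background in all channels. These medians were below 0 on the arrays with OXA in Cy5 and above 0 on those with OXA in Cy3. OXTR and both EDNRB probes had the sign of these medians on array 4, GJA1 had it on arrays 2, 3 and 4, and EDNRA on arrays 2 and 4. The part of epithelial cells in the members' ratios was not tested.

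Macrophage markers had medians of 0.70, -0.66, 1.98 and 0.73 over 8 genes, with summed signals of 1309 to 9092 in the OXA channel and 1424 to 5404 in the non-treated channel, and 5 of 8 were well above background in all channels. Their signs were those of OXTR and EDNRB, and their part in these results was not tested. Endothelial markers (4 of 8 genes tested) had medians of -0.40, -0.18, 0.26 and 0.59, with summed signals of 3255 to 9734 in the OXA channel and 4188 to 7649 in the non-treated channel. Smooth muscle markers had -0.44, -0.11, 0.40 and -0.61, with summed signals of 202439 to 462534 in the OXA channel and 172389 to 568912 in the non-treated channel. Fibroblast and stroma markers had -0.11, -0.58, 0.23 and -0.46 over 4 genes, with summed signals of 40685 to 51108 in the OXA channel and 45690 to 71680 in the non-treated channel. RGS5, the 1 pericyte marker with a named probe, had -1.07, 1.57, 0.51 and -0.93. In all lists, of pathways and of markers, limma called 0 genes, and 0 had an unadjusted p under 0.05.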

How the data were processed

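RNA of OXA-treated and non-treated myometrial explants was hybridised to 4 dual-colour Agilent arrays. Spot and background intensity, processed signal intensity, and the log10 ratio of Cy5 over Cy3 with its error and p-value come from the deposited scanner output (Agilent Feature Extraction, version 10.7.3.1, per the file headers). The ratios of this report are the authors' deposited log2 values. Their direction was found by comparison: between 99.96% and 99.99% of them lay within 0.001 of the log2 of processed OXA signal over processed non-treated signal on each array, so they run as OXA over non-treated, uncentred. Their medians over all probes were 0.10, 0.10, -0.19 and 0.07, and 0.0035, -0.046, 0.0017 and 0.0094 over tested probes (arrays 1 to 4).

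Spots of a probe were averaged. Gene names came from RefSeq transcript matches (assembly Sscrofa11.1), which named 6700 of 43603 probes. Genes without a named probe were not looked for under other identifiers. Tested probes were those that the scanner flagged as well above background on 3 or more arrays in either treatment. limma 3.58.1 in R 4.3.3 was fitted to all 19505 tested probes with terms for OXA and dye (2 residual and 4.1 prior degrees of freedom), with two-sided tests adjusted by Benjamini-Hochberg at 0.05. A two-sided exact sign permutation test over the 4 arrays was run for each member probe, and p = 0.13 (rounded) is the smallest it can give. The fit was also run on simulated data with noise drawn independently for each probe and array. The arrays here correlate over probes, so that run cannot show how the fit behaves on them. The small number of arrays limits precision. The arrays share 1 slide and 1 scan.

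The 4 genes and all lists were chosen with earlier results of these data known. All member probes are given. From each list at most 3 tested genes with the smallest p on their brightest probe are named, and for each member the 3 genes with the smallest root mean square difference in log2 ratio over the 4 arrays; 1 gene so chosen is not reported here. Alternatives varied the background correction (normexp with offset 50, or none), the normalization (loess, median centring, centred deposited values, the scanner's LogRatio), the filter, the dye term, array weights, separate channels, the reading of OXA as Cy5 throughout, the arrays included and the summary of a gene's probes. Turning array 2 was chosen after seeing the data.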

Additional observations from a re-analysis of the deposited data

How the results depend on the processing

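The 5 member probes were estimated under 81 combinations of probe and alternative. Many of these could not move the estimate. The filters, dropping the dye term alone, array weights and the scanner's LogRatio left it at that of the deposited ratios. Separate channels left it at that of loess. In 0 of these was a member called (adjusted p 0.189 to 1.00), and in 3 the estimate turned below 0. With OXA in Cy5 on all arrays, where dye and OXA cannot be told apart, EDNRA was -0.0034 and GJA1 was -0.052. Without array 4 the dimmer EDNRB probe was -0.070. Leaving out 1 array gave 0.11 to 0.30 for OXTR, 0.19 to 0.27 for EDNRA, 0.11 to 0.34 for the brighter and -0.070 to 0.52 for the dimmer EDNRB probe, and 0.12 to 0.61 for GJA1. The other alternatives gave 0.17 to 0.28 for OXTR, -0.0034 to 0.28 for EDNRA, 0.17 to 0.26 and 0.11 to 0.54 for the EDNRB probes, and -0.052 to 0.38 for GJA1. The dimmer EDNRB probe did not pass the filter on all arrays in both channels.

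Over all probes, leaving out 1 array gave between 1 and 1093 called probes, the highest without array 2 (259 higher and 834 lower), and 0 of the 5 member probes among them. These fits have 1 residual degree of freedom, from the 2 arrays that share a dye orientation. The cause was not tested. With array 2 turned, chosen after seeing the data, 0 probes were called and 5259 had an unadjusted p under 0.05. Gene list medians moved by less than their spread over arrays in 26 of 26 recomputations. Some of these could not move, since averaging the probes changes nothing where each gene has 1 tested probe. In 2 the sign changed, those of EDN1 with loess and of RGS5 with the mean of its probes. The fits are paired by array, since each ratio already sets treated against non-treated tissue. The 4 arrays are 1 group, so no further pairing was added. A block for slide or scan was not run, since the arrays share both. Precision is limited by 4 arrays.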
